A study of Mus musculus with 12 samples.

Results

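Collagen genes were examined in whole ears of mice during contact hypersensitivity, an allergic skin inflammation. A member was any gene whose array annotation gave a single symbol made of Col, a number, the letter a and a number. This gave 42 genes on 82 probe sets, out of 18193 genes with a single-symbol probe set. Each gene was represented by its probe set with the highest mean log2 intensity. The genes were sorted into 4 classes: 8 fibrillar, 10 basement membrane, 7 cartilage and 17 other genes.

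The measurements came from 12 one-colour arrays of 6 female mice aged 8 to 10 weeks. Of these mice, 3 were C57BL/6J wild types and 3 were Cnr1-/-/Cnr2-/- animals, which lack both cannabinoid receptors in every cell. The labels used here do not give the genetic background of the knockouts. All mice were sensitized on the shaved abdomen with 50 µl of 0.2% dinitrofluorobenzene (DNFB), a contact allergen, on 2 consecutive days. The right ear received 10 µl of DNFB at 0.3% on day 5, and the left ear stayed untreated. Both ears were taken after 48 h. The 4 groups were therefore wild-type control, wild-type DNFB, knockout control and knockout DNFB ears, with 3 ears each. Even the control ears came from sensitized mice. The ears of a mouse share 1 number in all values below.

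Collagens are proteins of 3 chains wound into a triple helix. Fibrillar collagens build the tensile fibres of dermis, tendon and bone. Basement membrane collagens form sheets under epithelia and around vessels, muscle fibres and nerves, and anchor the epidermis to the dermis. Cartilage collagens make the thin fibrils and the fibril surfaces of cartilage, such as the plate in the middle of the external ear. The other types coat fibrils, form beaded filaments or short-chain networks, or cross the cell membrane.

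The deposited values were linear intensities made by the authors with GCRMA, a background correction and normalization for this array type. A probe set was tested when its intensity reached 16 in at least 3 of the 12 arrays. Fold changes below that intensity depend on the background step. Of the 42 genes, 36 passed this filter. The 6 that did not were the fibrillar Col24a1, the type IV chain Col4a3, and Col6a4, Col6a5, Col19a1 and Col26a1 of the other class. Array medians lay between 24.7 and 30.1, and arrays of one group correlated at r = 0.957 to 0.971. As a measure of RNA quality, the Actb control probe set at the 3' end was set against that at the 5' end. The log2 ratio was 0.66 ± 0.07 (SD, n = 3) in control and 0.52 ± 0.08 in treated ears of wild types, and 0.48 ± 0.02 in control and 0.42 ± 0.01 in treated ears of knockouts. The same ratio for Gapdh was -0.40 ± 0.08 in control and -0.35 ± 0.03 in treated ears of wild types. In knockouts it was -0.38 ± 0.06 in control and -0.32 ± 0.06 in treated ears. The Actb ratio moved with the groups, while the Gapdh means were slightly higher in treated ears. The part of either ratio in the results was not tested. The Cnr1 probe set was near background, between 4.88 and 19.8 over all arrays. Cnr2 read 12.3, 18.1 and 7.84 in wild-type control, 28.1, 15.9 and 27.9 in wild-type DNFB, 21.3, 9.85 and 10.2 in knockout control and 30.1, 39.4 and 28.6 in knockout DNFB ears. It was thus not lower in the ears labelled knockout, and the genotype labels have no support from these probe sets. Where the probes lie relative to the deleted parts of the genes is not given in the sources used here, so they do not check the labels.

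More collagen genes were lower than higher in DNFB-treated ears of both genotypes. In wild-type ears, 21 of 36 fell, 2 rose and 13 did not pass the threshold, an adjusted p under 0.05. Of all 13383 genes tested, 43.0% passed in either direction, 19.0% higher and 24.0% lower. The median log2 change was -0.79 for the collagens, or -0.62 with genes below 16 set to that floor, and -0.08 for all genes. Of the wild-type calls over all genes, 44.2% were higher, and 60.8% were with each array centred on its median, which moved the median of all genes by 0.14. The collagens then gave 2 higher and 18 lower calls. In knockout ears, 21 collagen genes fell, 3 rose and 12 did not pass. There 45.8% of all genes passed, 21.2% higher and 24.6% lower. The median was -0.54 for the collagens, -0.49 at the floor, and -0.06 for all genes. Whole-ear RNA cannot tell fewer cells of a type from less RNA per cell, which applies to every value here.

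Of the 36 genes, 19 fell in both genotypes, and only Col12a1 and Col18a1 rose in both. The share of all genes called in both genotypes was not counted, so these counts stand without a background. On the brightest probe set, Col5a1 and Col5a3 passed as lower in wild type alone, and Col14a1 and Col9a2 in the knockout alone. Col23a1 passed as higher in the knockout alone. The calls differed between probe sets for Col5a1 and Col23a1 in the knockout and for Col14a1 in wild type. Control and treated ears did not overlap for 24 of the 36 genes in wild type, against 59.3% of all genes, and for 27 in the knockout, against 56.6%. No gene was called in opposite directions, and none of these differences between genotypes passed its own test.

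**Figure D1:**
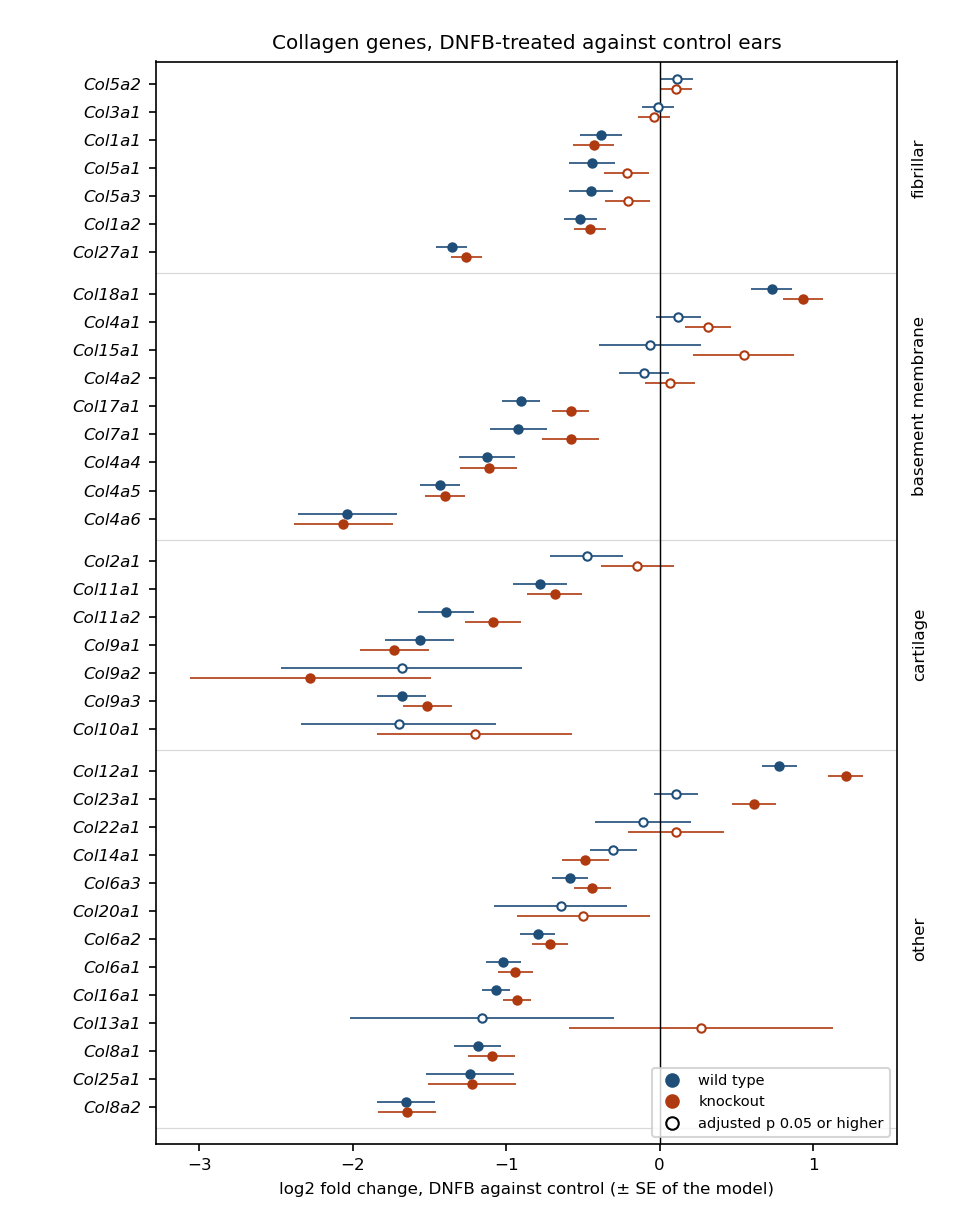
Log2 change of each of the 36 tested collagen genes in DNFB-treated against control ears, by class, with the standard error of the model; blue is wild type, orange is knockout, and open points did not pass an adjusted p of 0.05. Most points lie left of 0, Col4a6 is near -2.04 in wild type and -2.06 in the knockout, and Col12a1 and Col18a1 lie right of 0 in both.

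The median change varied between the 4 classes. In wild-type ears the median log2 change was -0.44 over 7 fibrillar genes, -0.90 over 9 basement membrane genes, -1.56 over 7 cartilage genes and -0.80 over 13 other genes. In knockout ears the same medians were -0.22, -0.58, -1.21 and -0.50. With values below 16 at the floor, the cartilage median was -1.39 in wild type and -1.09 in the knockout, and that of the other class -0.65 and -0.49. All 7 cartilage genes had negative changes in both genotypes, although not all passed. No test was made between classes, whose members are few and were chosen with earlier results known.

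The level of each class was also followed array by array. For each gene the mean log2 intensity of the wild-type control ears was subtracted, and the median over the class was taken. Fibrillar genes lay between -0.10 and 0.06 in wild-type control, -0.61 and -0.26 in wild-type DNFB, 0.08 and 0.37 in knockout control, and -0.03 and 0.16 in knockout DNFB ears. All 3 wild-type DNFB ears were below the wild-type control ears, while the knockout DNFB ears overlapped with them. The knockout control ears lay above the wild-type control ears, and they too overlapped with the knockout DNFB ears. In limma, 0 of the 7 fibrillar genes had an unadjusted p under 0.05 for the difference of the responses. Cartilage genes lay between -0.26 and 0.22, -1.44 and -1.06, 0.07 and 0.34, and -1.34 and -0.84 in the same order of groups. Basement membrane genes lay between -0.10 and 0.04, -0.92 and -0.76, -0.26 and 0.17, and -0.83 and -0.70. Control and treated ears did not overlap within a genotype in either of these classes. For the other class the values were -0.09 to 0.10, -0.85 to -0.60, 0.04 to 0.38 and -0.44 to -0.28, again without overlap between the ears of a genotype.

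**Figure D2:**
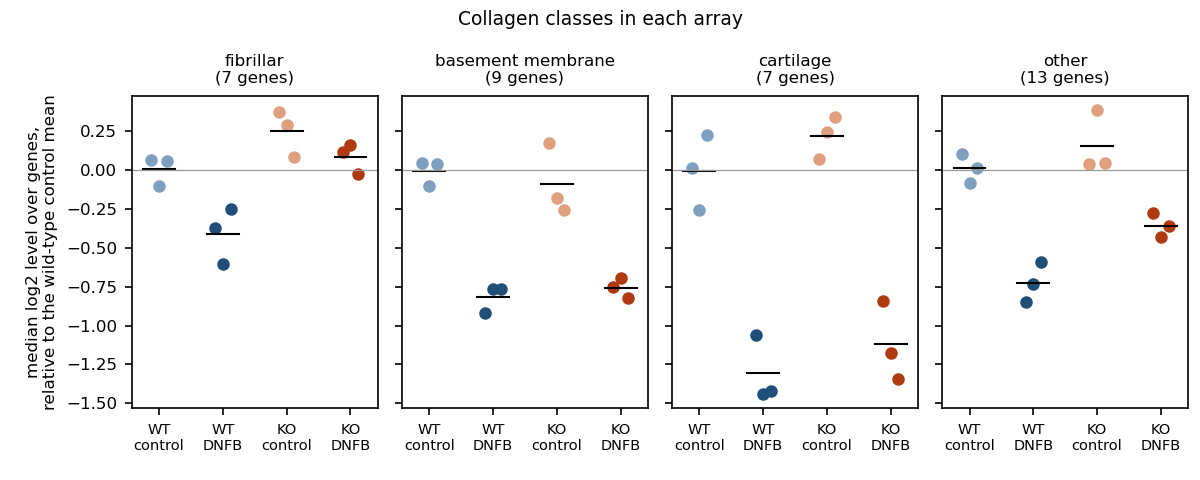
Median log2 level over the tested genes of each collagen class in each of the 12 arrays, relative to each gene's mean in wild-type control ears; points are arrays and bars are group means. Cartilage genes show the lowest treated ears (-1.44 to -1.06 in wild type), and fibrillar genes of the knockout stay between -0.03 and 0.37.

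Among fibrillar collagens, the chains of type I, the main collagen of dermis, fell slightly. Col1a1 on chromosome 11 read 1477, 1287 and 1339 in wild-type control ears 1 to 3 and 1109, 1046 and 989.5 in the treated ears of the same mice. In the knockout mice it read 2429, 1947 and 1765 in control and 1601, 1617 and 1316 in treated ears. Every treated ear was below every control ear of its genotype, and the knockout ears were higher than the wild-type ears of the same kind. The log2 change was -0.38 ± 0.13 in wild type (adjusted p = 0.0468) and -0.43 ± 0.13 in the knockout (adjusted p = 0.0283). The wild-type call was near the threshold. It was lost without any of the 6 wild-type ears and without knockout control ear 2 or knockout DNFB ear 1 or 2, with adjusted p up to 0.141. The knockout call was lost without knockout control ear 1 or knockout DNFB ear 3, with adjusted p up to 0.0989. A second, dimmer Col1a1 probe set passed in neither genotype, with -0.35 (adjusted p = 0.203) and -0.23 (adjusted p = 0.405). On that probe set the knockout differed from wild type by 0.03 in control and 0.15 in treated ears.

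Col1a2, the second chain of type I, read 4338, 4017 and 4433 in wild-type control and 2986, 2795 and 3151 in wild-type DNFB ears. Knockout ears read 5501, 5192 and 4505 without and 3789.8, 3935 and 3361 with DNFB. The treated ears were lower in both genotypes with no overlap, by 1.43-fold (log2 -0.52 ± 0.11, adjusted p = 0.00377) and 1.37-fold (log2 -0.45 ± 0.11, adjusted p = 0.00723).

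Col3a1, whose product mixes with type I in the fibrils of skin and vessels, did not pass the threshold on its brightest probe set. It read 5367, 4938 and 6206 in wild-type control and 5555, 5277 and 5482 in wild-type DNFB ears. Knockout control ears read 6786, 6376 and 5793 and knockout DNFB ears 5913, 6254 and 6278. The groups overlapped within each genotype, and the log2 changes were -0.01 ± 0.10 (adjusted p = 0.943) and -0.04 ± 0.10 (adjusted p = 0.808). A second, dimmer Col3a1 probe set gave 0.55 (adjusted p = 0.0284) and 0.62 (adjusted p = 0.0158) instead, so the probe sets of this gene disagree.

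Type V collagen starts fibrils and sets their width. Its chain Col5a3 read 147, 113 and 128 in wild-type control and 95.1, 82 and 108 in wild-type DNFB ears, which did not overlap. In the knockout, 118, 129 and 125 in control and 100.03, 98.4 and 126 in treated ears did overlap. The changes were -0.45 ± 0.14 (adjusted p = 0.0322) and -0.21 ± 0.14 (adjusted p = 0.279). Col5a1 gave -0.44 (adjusted p = 0.0392) and -0.22 (adjusted p = 0.281), while Col5a2 gave 0.11 and 0.11, neither past the threshold. Over the 3 tested probe sets of Col5a1, the wild-type changes were -0.67 to -0.44, all with the same call. In the knockout they were -0.67 to -0.22, and a dimmer probe set passed as lower there, so the wild-type-only call depends on the probe set. The wild-type call of Col5a3 was lost without wild-type control ear 1 or 3 or wild-type DNFB ear 1 or 2 (adjusted p up to 0.116). That of Col5a1 was lost without any wild-type control ear, wild-type DNFB ear 1 or 2 or knockout DNFB ear 2 (adjusted p up to 0.135).

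Col27a1, on chromosome 4, is fibrillar by its helix and is best known from developing cartilage. It read 503, 529 and 605 in wild-type control and 211, 204 and 224 in wild-type DNFB ears. The knockout values were 418, 485 and 457 in control and 183, 184 and 200.2 in treated ears. Treated ears were far below control ears in both genotypes, a fall of 2.56-fold (log2 -1.35 ± 0.10, adjusted p = 9.27e-06) in wild type and 2.4-fold (log2 -1.26 ± 0.10, adjusted p = 1.19e-05) in the knockout. Its change was the largest of the 7 fibrillar genes tested. Of the 11 tested fibroblast markers, 2 rose and 4 fell in wild-type ears, and 3 rose and 3 fell in the knockout. Their median log2 change was -0.10 in wild type and 0.19 in the knockout. Their summed intensity, in which the brightest genes weigh most, ranged over 12236 to 14842 in wild-type control and 9638 to 10571 in wild-type DNFB ears. In the knockout it ranged over 12795 to 13161 in control and 10246 to 10706 in DNFB ears. Its part in the fibrillar values was not tested.

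Promoter sequences of 33 of the 42 genes were found in the RefSeq table of build GRCm38.p6. Col1a2 and Col3a1 are shown because they are co-expressed fibril genes that differed in their response. Each line gives bases before the annotated gene start, 5′ to 3′ on the gene's strand, at chr6:4505368-4505617 (plus strand) and chr1:45311288-45311537 (plus strand). Capitals mark matches on either strand to the TATA box letters TATAAA, to the CCAAT box, to the GC box letters GGGCGG, or to TGANTCA, the letters of a Jun and Fos site.
Col1a2: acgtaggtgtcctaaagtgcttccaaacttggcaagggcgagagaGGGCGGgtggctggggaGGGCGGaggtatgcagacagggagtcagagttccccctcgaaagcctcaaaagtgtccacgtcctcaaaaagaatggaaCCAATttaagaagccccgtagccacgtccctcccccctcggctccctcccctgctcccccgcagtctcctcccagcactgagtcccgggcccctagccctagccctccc
Col3a1: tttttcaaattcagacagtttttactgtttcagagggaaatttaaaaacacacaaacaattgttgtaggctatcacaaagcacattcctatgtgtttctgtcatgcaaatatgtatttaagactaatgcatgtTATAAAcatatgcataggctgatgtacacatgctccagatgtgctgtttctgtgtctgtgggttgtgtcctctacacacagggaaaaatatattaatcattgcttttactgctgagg
The Col1a2 stretch held 1 CCAAT and 2 GGGCGG matches, and the Col3a1 stretch 1 TATAAA match. In the 250 bases upstream, 20 of the 33 collagen promoters held GGGCGG (60.6%), against 32.9% of 27025 promoters. CCAAT was in 12 (36.4% against 34.5%), TATAAA in 5 (15.2% against 13.0%) and TGANTCA in 1 (3.03% against 6.87%). None of the 4 motifs contains another, matches that overlap at their ends were each counted, and TGANTCA reads the same on both strands. A match describes letters in the window and is no evidence of a bound factor.

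The basement membrane class split by chain. Col4a1 and Col4a2 encode the common chains of type IV collagen in nearly all basement membranes, and neither passed the threshold. Col4a1 read 645, 593 and 639 in wild-type control and 683, 574 and 804 in wild-type DNFB ears, with overlap. Knockout control ears read 594, 723 and 765 and knockout DNFB ears 793, 812 and 982, which did not overlap. The log2 changes were 0.12 ± 0.15 (adjusted p = 0.548) and 0.32 ± 0.15 (adjusted p = 0.119). Col4a2, its neighbour on chromosome 8, gave -0.10 and 0.07 (adjusted p = 0.66 and 0.781).

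The tissue-restricted chains Col4a4, Col4a5 and Col4a6 all fell in both genotypes on their brightest probe sets. Col4a6, which pairs with Col4a5 chains in the basement membrane of skin and smooth muscle, read 91.9, 96.8 and 96.8 in wild-type control and 27.4, 24.9 and 18.2 in wild-type DNFB ears. In the knockout it read 101, 67.3 and 79.4 in control and 30.6, 22 and 11 in treated ears, the last of them below 16. The fall was 4.1-fold (log2 -2.04 ± 0.32, adjusted p = 0.000867) in wild type and 4.18-fold (log2 -2.06 ± 0.32, adjusted p = 0.000694) in the knockout, with no overlap. Col4a5 read 159, 137 and 147 in wild-type control and 62.4, 50.7 and 51.5 in wild-type DNFB ears. Its knockout values were 153, 115 and 122 and 52.6, 46.6 and 47.8. The groups were again fully apart, with log2 changes of -1.43 ± 0.13 (adjusted p = 3.19e-05) and -1.40 ± 0.13 (adjusted p = 2.98e-05).

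Col4a4, a chain known from kidney and eye basement membranes, read 37.6, 38.3 and 53.7 in wild-type control and 22.5, 21.2 and 15.6 in wild-type DNFB ears. Knockout ears read 48.7, 39.7 and 43.5 without and 23, 20.5 and 17.5 with DNFB. Treated ears were below control ears in both genotypes, with log2 changes of -1.12 ± 0.19 (adjusted p = 0.00108) and -1.12 ± 0.19 (adjusted p = 0.000995). A second, dimmer Col4a4 probe set passed as lower in wild type (-1.53) but did not pass in the knockout (-0.59). Its neighbour Col4a3, the partner chain, stayed below 16 in all 12 arrays.

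Col4a5 and Col4a6 lie side by side on chromosome X on opposite strands, with their starts facing away from each other. Their upstream stretches are shown because these genes fell together. They lie at chrX:141475169-141475369 (plus strand) and chrX:141474096-141474326 (minus strand), and capitals mark the same 4 motifs. Both were shortened to end before the first annotated start, which left 201 bases for Col4a5 and 231 for Col4a6.
Col4a5: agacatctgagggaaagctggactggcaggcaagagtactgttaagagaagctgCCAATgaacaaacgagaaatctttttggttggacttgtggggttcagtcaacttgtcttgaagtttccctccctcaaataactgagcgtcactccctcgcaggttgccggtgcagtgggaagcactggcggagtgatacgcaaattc
Col4a6: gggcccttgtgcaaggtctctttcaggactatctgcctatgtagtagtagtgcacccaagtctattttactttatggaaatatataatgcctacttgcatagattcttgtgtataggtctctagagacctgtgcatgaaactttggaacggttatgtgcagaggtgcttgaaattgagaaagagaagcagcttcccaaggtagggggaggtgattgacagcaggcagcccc
The Col4a5 stretch held 1 CCAAT match, and the Col4a6 stretch held none of the 4 motifs.

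Col17a1 and Col7a1, collagens that anchor the epidermis, fell in both genotypes, but both knockout calls were lost with the washing run of the arrays, described further on, as a block. Col17a1, a transmembrane collagen of the hemidesmosome in basal keratinocytes, read 2538, 2542 and 2630.2 in wild-type control and 1339, 1514 and 1278 in wild-type DNFB ears. In the knockout it read 2666, 2267 and 1937 in control and 1525, 1584 and 1449.6 in treated ears. Treated ears were lower with no overlap, by 1.87-fold (log2 -0.90 ± 0.12, adjusted p = 0.000313) and 1.5-fold (log2 -0.58 ± 0.12, adjusted p = 0.00379). Col7a1, the anchoring fibril collagen, read 177, 137 and 179.7 in wild-type control and 78.1, 85.9 and 96.1 in wild-type DNFB ears. Knockout control ears read 184, 122 and 110.5 and treated ears 90.03, 95.4 and 86.7. Its changes were -0.92 ± 0.19 (adjusted p = 0.00352) and -0.58 ± 0.19 (adjusted p = 0.0317), again without overlap. The knockout call of Col7a1 was lost without knockout control ear 1 or any knockout DNFB ear (adjusted p up to 0.086).

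Of 9 tested markers of basal keratinocytes, 1 rose and 2 fell in wild-type ears, and 3 rose and 2 fell in the knockout. Krt15, a keratin of basal cells, fell with log2 changes of -1.94 in wild type and -1.96 in the knockout, and Dst, which encodes a plakin of hemidesmosomes, with -1.30 and -1.04. Lama3, a chain of the laminin that links hemidesmosomes to anchoring fibrils, rose by 0.49 (adjusted p = 0.0291) and 0.93 (adjusted p = 0.000918). Their summed intensity was 20284 to 22591 in wild-type control, 18637 to 20828 in wild-type DNFB, 18128 to 21709 in knockout control and 19321 to 21871 in knockout DNFB ears. The sums overlapped between control and treated ears of each genotype, and the part of these cells in the Col17a1 and Col7a1 values was not tested.

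Col18a1 and Col15a1 encode basement membrane collagens with heparan or chondroitin sulfate side chains, and Col18a1 is the source of endostatin. Col18a1 read 141, 109.6 and 131 in wild-type control and 223, 181 and 229 in wild-type DNFB ears. The knockout ears read 142, 129 and 117 in control and 241, 235 and 263 after DNFB. Every treated ear was above every control ear, a rise of 1.66-fold (log2 0.73 ± 0.13, adjusted p = 0.0019) in wild type and 1.91-fold (log2 0.93 ± 0.13, adjusted p = 0.000392) in the knockout. A second probe set gave log2 changes of 0.78 and 1.07. Col15a1 overlapped between groups, with -0.06 ± 0.33 and 0.55 ± 0.33, neither past the threshold. Of 10 endothelial markers, none passed in wild type and 3 rose in the knockout. Their summed intensity was 629 to 634 in wild-type control, 663 to 817 in wild-type DNFB, 639 to 702 in knockout control and 728 to 878 in knockout DNFB ears, and its part in the values of Col4a1 and Col18a1 was not tested.

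**Figure D3:**
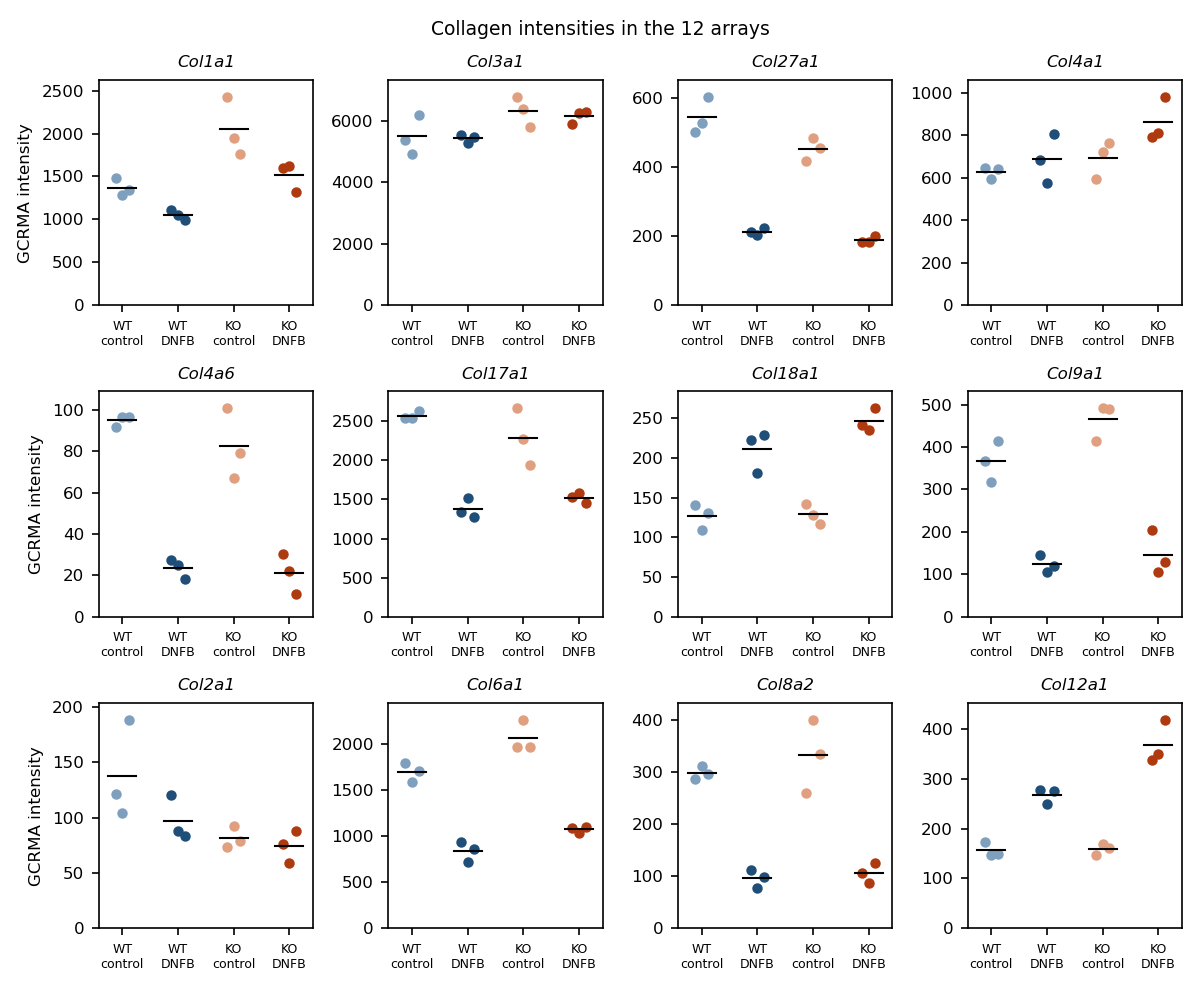
GCRMA intensity of 12 collagen genes in each of the 12 arrays, on linear axes starting at 0; points are ears and bars are group means. Col4a6, Col9a1 and Col8a2 are low in all treated ears, Col12a1 and Col18a1 are high, and Col3a1 overlaps between control and treated ears.

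Cartilage collagens had the largest falls of the 4 classes by median. Type IX collagen, which coats cartilage fibrils, fell in both genotypes for its chains Col9a1 and Col9a3. Col9a3 read 164, 189 and 236 in wild-type control and 67, 59.8 and 55.2 in wild-type DNFB ears. Knockout ears read 192, 229 and 242 in control and 88.7, 71.3 and 72.3 after DNFB. Treated ears were all below control ears, by 3.21-fold (log2 -1.68 ± 0.16, adjusted p = 3.65e-05) and 2.85-fold (log2 -1.51 ± 0.16, adjusted p = 5.7e-05). Col9a1 read 368, 318 and 414 in wild-type control and 146, 107 and 121 in wild-type DNFB ears. Its knockout values were 415, 492 and 491 and 204, 104.6 and 129 in control and treated ears. The fall was 2.96-fold (log2 -1.56 ± 0.23, adjusted p = 0.000497) and 3.32-fold (log2 -1.73 ± 0.23, adjusted p = 0.000228).

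Col9a2, the remaining type IX chain, was near background. It read 15.1, 23.7 and 15 in wild-type control and 1.8, 12.8 and 7.07 in wild-type DNFB ears. Knockout control ears read 21.1, 38 and 25.6 and knockout DNFB ears 1.89, 14.7 and 6.48. All treated ears were below 16, so the fall in the knockout was at least 1.71-fold against that floor (adjusted p = 0.0423), and the wild-type change did not pass (adjusted p = 0.118), though it did with the washing run as a block. The knockout call was lost in 9 of the 12 fits that left out 1 ear, with adjusted p up to 0.139. It was kept only without wild-type DNFB ear 1 or 2 or knockout DNFB ear 2.

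Type XI collagen forms the core of thin cartilage fibrils. Col11a2 read 107, 83.6 and 119 in wild-type control and 48.9, 31.4 and 38.2 in wild-type DNFB ears. In the knockout, control ears read 88.7, 100.2 and 94.5 and treated ears 51.6, 42.1 and 40.2. It fell 2.63-fold (log2 -1.39 ± 0.18, adjusted p = 0.00027) and 2.12-fold (log2 -1.09 ± 0.18, adjusted p = 0.00106), with no overlap. Col11a1 fell by less, with -0.78 and -0.69 (adjusted p = 0.00649 and 0.0117). Col10a1, the collagen of hypertrophic chondrocytes, was dim, at 2.01 to 56.7 over all arrays, and did not pass (-1.70 and -1.21, adjusted p = 0.0585 and 0.162).

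Col2a1, the principal collagen of cartilage, differed from type IX and XI genes in that it passed in neither genotype. It read 122, 104 and 189 in wild-type control and 120.4, 87.7 and 83.8 in wild-type DNFB ears. Knockout ears read 73.1, 92.7 and 79.2 in control and 76, 59.1 and 88.2 in treated ears. Control and treated ears overlapped in both genotypes, and the log2 changes were -0.48 ± 0.24 (adjusted p = 0.142) and -0.15 ± 0.24 (adjusted p = 0.664). The difference between Col2a1 and the other cartilage genes was not itself tested.

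Non-collagen chondrocyte markers fell beside them. Of 12 such genes, 11 were tested, and 8 fell in wild-type ears and 9 in the knockout, with none higher. Their median log2 change was -1.36 and -1.20. Cnmd, which encodes the cartilage protein chondromodulin, gave -1.90 in wild type, Acan, the aggrecan of cartilage matrix, -1.64, and Sox9, the master regulator of chondrocytes, -1.36. The summed intensity of the list was 8479 to 9486 in wild-type control, 3491 to 4551 in wild-type DNFB, 7211 to 10262 in knockout control and 3889 to 4398 in knockout DNFB ears. Matn1 stayed below the filter. The summed level thus moved with the cartilage collagens, without overlap between control and treated ears, and its part in their values was not tested.

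Type VI collagen, the beaded filament around cells of dermis and muscle, fell for all 3 tested chains in both genotypes. Col6a1 on chromosome 10 read 1796, 1587 and 1706 in wild-type control and 941, 722 and 862 in wild-type DNFB ears. The knockout ears read 1970.3, 2266 and 1974 in control and 1093, 1036 and 1098 after treatment. Treated ears were lower with no overlap, by 2.03-fold (log2 -1.02 ± 0.11, adjusted p = 0.000105) and 1.92-fold (log2 -0.94 ± 0.11, adjusted p = 0.000143). Its neighbour Col6a2 gave -0.80 and -0.71, and Col6a3 gave -0.59 and -0.44. The knockout call of Col6a3 was lost without knockout control ear 2 (adjusted p = 0.0574). The Col6a1 promoter is shown because it held the only TGANTCA match of the 33 collagen promoters, at chr10:76726045-76726294 (minus strand), with the match in capitals.
Col6a1: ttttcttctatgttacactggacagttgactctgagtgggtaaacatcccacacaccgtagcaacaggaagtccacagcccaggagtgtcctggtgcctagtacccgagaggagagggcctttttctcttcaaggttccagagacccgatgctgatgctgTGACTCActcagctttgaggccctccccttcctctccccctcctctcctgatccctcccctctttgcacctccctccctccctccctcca

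Type VIII collagen, a short-chain collagen of vessel walls and of the corneal Descemet's membrane, fell for both chains. Col8a2 read 287, 312 and 296 in wild-type control and 111, 78 and 98.2 in wild-type DNFB ears. Knockout control ears read 260.2, 400.3 and 335 and treated ears 106, 86.6 and 125. The fall was 3.14-fold (log2 -1.65 ± 0.19, adjusted p = 0.000122) and 3.13-fold (log2 -1.65 ± 0.19, adjusted p = 0.000108). Col8a1 read 2384, 1991 and 2567 in wild-type control and 1145, 916 and 984 in wild-type DNFB ears. Its knockout values were 2408, 2618 and 2605 in control and 1392, 975 and 1239 in treated ears. Both genes were fully apart between ears, and Col8a1 changed by -1.19 ± 0.15 (adjusted p = 0.000228) and -1.10 ± 0.15 (adjusted p = 0.000317).

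Of the fibril-associated collagens in the other class, Col12a1 rose. Col12a1 on chromosome 9, whose product binds the surface of type I fibrils, read 172, 146 and 149.8 in wild-type control and 277, 250.3 and 275 in wild-type DNFB ears. Knockout ears read 146, 169 and 160.3 without and 338, 349 and 418 with DNFB. Treated ears were above control ears with no overlap, by 1.72-fold (log2 0.78 ± 0.11, adjusted p = 0.000536) and 2.32-fold (log2 1.21 ± 0.11, adjusted p = 3.13e-05). Knockout DNFB ears were also above wild-type DNFB ears. The difference of the responses was 0.43 ± 0.16, with an unadjusted p of 0.0228 and an adjusted p of 0.756.

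The related Col16a1 fell in both genotypes (-1.07 and -0.93). Col14a1, also fibril-associated, gave -0.30 in wild type (adjusted p = 0.146) and -0.49 in the knockout (adjusted p = 0.0287). The latter call was lost without knockout control ear 1 or 2 or knockout DNFB ear 2 or 3 (adjusted p up to 0.0991). Col20a1 and Col22a1 stayed between 8.5 and 35.5 and did not pass.

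Transmembrane collagens gave mixed values. Col25a1 read 21.8, 24.1 and 17.8 in wild-type control and 8.72, 6.24 and 13.3 in wild-type DNFB ears. Its knockout values were 18.4, 27.6 and 18.1 and 11.8, 8.02 and 7.62. All treated ears were below 16, so the fall was at least 1.32-fold in wild type (adjusted p = 0.00711) and at least 1.31-fold in the knockout (adjusted p = 0.007). Col23a1 gave 0.11 in wild type (adjusted p = 0.584) and rose in the knockout by 0.61 (adjusted p = 0.00666), but the difference of 0.51 ± 0.20 did not pass (adjusted p = 0.775). Its other tested probe sets did not pass in the knockout, with 0.54 (adjusted p = 0.0589) and 0.21 (adjusted p = 0.514). Col13a1 ranged from 1.27 to 27.1 and passed in neither without the washing run as a block.

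The genotype comparison asked whether collagen levels differ without the cannabinoid receptors. None of the 36 genes passed in limma between knockout and wild-type control ears, where 0.149% of all genes passed, or between DNFB-treated ears, where 0.0672% passed. No collagen gene passed in the difference of the responses either, where 0.00747% of all genes passed. At an unadjusted p under 0.05, there were 9 collagen genes in control ears, 14 in treated ears and 2 in the difference, against 9.80%, 9.75% and 6.29% of all genes. Of the 36 genes, 24 were higher in knockout control ears (median log2 difference 0.11) and 31 in knockout DNFB ears (median 0.24). For all genes the medians were -0.000858 and 0.02, and 49.8% and 53.5% were higher. The signs depended on the scaling. With each array centred on its median, 71.4% of all genes and 28 of 36 collagen genes were higher in knockout control ears. In DNFB ears, 62.7% of all genes and 31 collagen genes then were.

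Groups did not overlap for 12 collagen genes in control ears, where 18.1% of all genes had such groups, and for 16 in treated ears, where 15.9% had. On its brightest probe set, Col1a1 was higher in the knockout by 0.57 ± 0.13 in control ears (adjusted p = 0.179) and 0.52 ± 0.13 in treated ears (adjusted p = 0.285). Its second tested probe set gave only 0.03 (adjusted p = 0.972) and 0.15 (adjusted p = 0.855). Col16a1 gave 0.33 ± 0.09 and 0.47 ± 0.09, Col5a1 0.39 ± 0.15 and 0.62 ± 0.15, and Col5a2 0.42 ± 0.11 and 0.41 ± 0.11. Each of these 3 genes had no overlap between genotypes in either kind of ear, and none passed the adjusted threshold. In the opposite direction, Col2a1 was lower in knockout control ears by -0.72 ± 0.24 (adjusted p = 0.309) and Col27a1 by -0.27 ± 0.10 (adjusted p = 0.357). These genes were picked out after their values were seen.

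**Figure D4:**
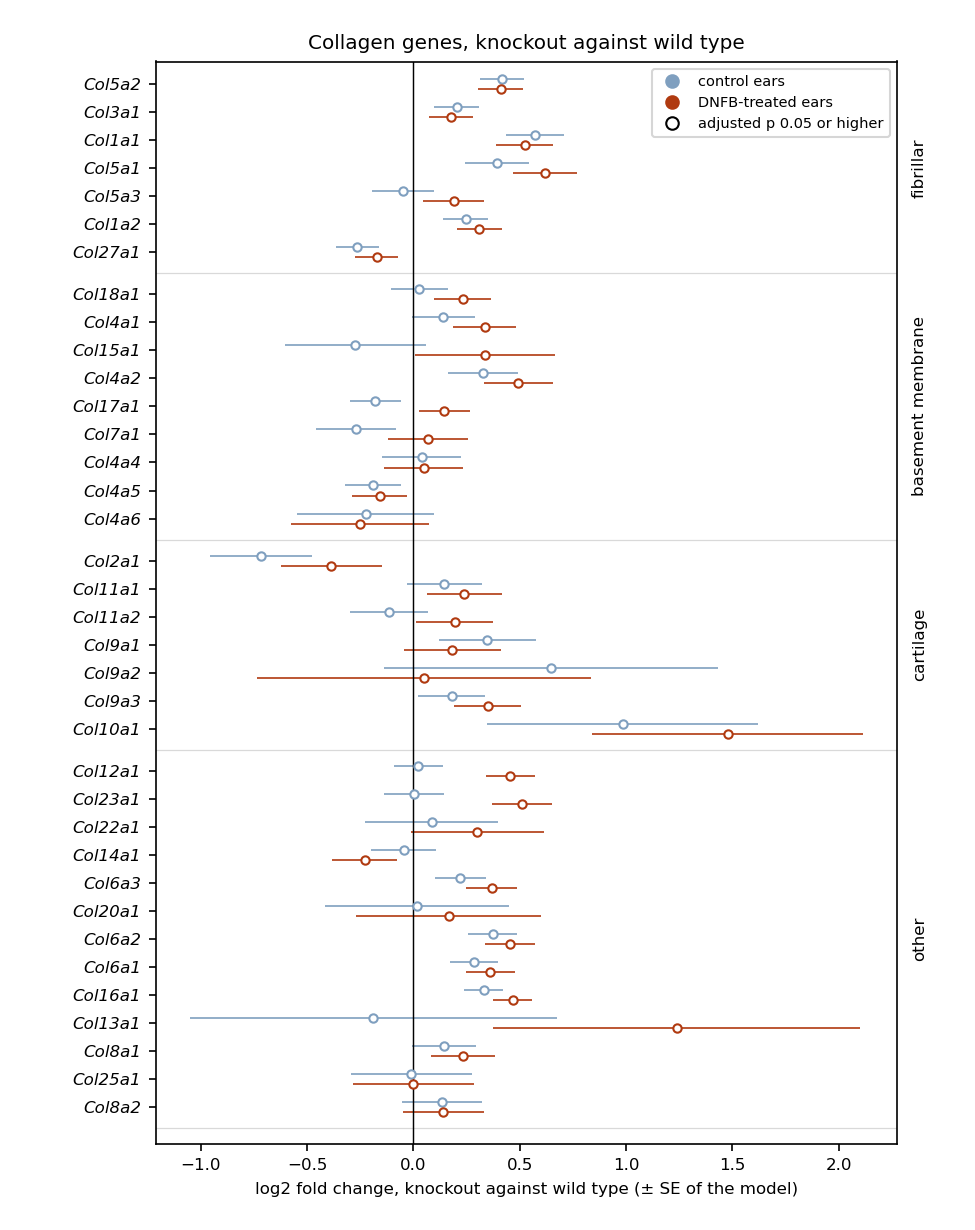
Log2 difference of each tested collagen gene between knockout and wild-type ears, with the standard error of the model, for control ears and DNFB-treated ears. All points are open because none passed an adjusted p of 0.05, and 31 of 36 lie right of 0 in treated ears.

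Cnr1 and Cnr2 both lie on chromosome 4, as do 5 tested collagen genes: Col15a1, Col27a1, Col9a2, Col8a2 and Col16a1. Col15a1 was separated from Cnr1 by 94 tested genes, and Col16a1 from Cnr2 by 83. Their genotype differences in control ears were -0.27 ± 0.33 and 0.33 ± 0.09, those of Col27a1, Col9a2 and Col8a2 were -0.27 ± 0.10, 0.65 ± 0.79 and 0.13 ± 0.19, and none passed the threshold.

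Runs of arrays were inferred from gaps between hybridization times in the instrument records, as 3 runs of 4 arrays. They are called washing runs here, but no label names a batch. All 3 wild-type control ears fell in inferred run 1, beside DNFB ear 1 of that genotype. The other two wild-type DNFB ears shared run 2 with control ears 1 and 2 of the knockout. Control ear 3 and all treated ears of the knockout made up run 3. Within run 1 alone, the median collagen change in wild type was -0.68, with 31 of 36 genes negative. Within run 3 alone, that of the knockout was -0.33, with 26 of 36 negative. By class, the values within run 1 were -0.37 for fibrillar, -0.92 for basement membrane, -1.06 for cartilage and -0.85 for other genes. Within run 3 they were -0.22, -0.29, -1.24 and -0.35. No run held both genotypes of one kind of ear, so there is no genotype value within a run. With the run as a block, the genotype difference was positive for 25 of 36 genes in control ears (median 0.20) and for 31 in treated ears (median 0.42), and none passed. These blocked differences set knockout control ears 1 and 2 against wild-type DNFB ears 2 and 3 within run 2. They reach the other groups only through wild-type DNFB ear 1 in control ears, or knockout control ear 3 in treated ears. They are therefore no direct comparison of genotypes, and each rests on a lone ear.

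With the run as a block, 18 collagen genes passed in wild type and 15 in the knockout. Fewer of all 13383 genes passed as well. In wild type, 1450 were higher and 1613 lower, against 2545 and 3216 without the block. In the knockout, 1585 were higher and 1693 lower, against 2837 and 3286. The blocked responses equal the values within run 1 and run 3. Each thus rests on a lone ear, wild-type DNFB ear 1 or knockout control ear 3, which the fit assumes to vary like the others. In wild type, 16 of the 23 calls were kept, and Col1a1, Col5a1, Col5a3, Col4a4, Col6a3, Col11a1 and Col25a1 were lost. The wild-type calls gained were Col13a1, at -3.77 (adjusted p = 0.000896), and Col9a2, at -3.28 (adjusted p = 0.0463), and wild-type DNFB ear 1 read below 16 for both. In the knockout, 15 of 24 were kept, and Col1a1, Col1a2, Col7a1, Col17a1, Col6a3, Col9a2, Col14a1, Col23a1 and Col25a1 were lost. None of the kept calls changed sign. Col17a1, for example, gave -0.94 in wild type (adjusted p = 0.00536) and -0.35 in the knockout (adjusted p = 0.150) with the block.

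Genes that make, process, degrade or sense collagen were counted from lists chosen with earlier results known. Their counts, and those of the cell markers above, stand beside 19.0% higher and 24.0% lower among all genes in wild type, and 21.2% and 24.6% in the knockout. Of 18 genes of chain synthesis and folding, 2 rose and 8 fell in wild-type ears (median log2 change -0.23), and 2 rose and 7 fell in the knockout. The falls included Creb3l1, a transcription factor that drives collagen secretion, at -0.96, and the prolyl hydroxylase family members P3h3 and P3h4, at -0.73 and -0.59. Colgalt2, which adds galactose to collagen, was near the floor and fell at least 1.52-fold. Colgalt1, of the same family, went the other way. It read 293, 284 and 280 in wild-type control and 345, 348 and 398 in wild-type DNFB ears, and rose by 0.56 in the knockout (adjusted p = 0.00527).

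Of 15 genes for procollagen processing and cross-linking, none rose and 8 fell in wild type (median -0.52), and 7 fell in the knockout. Between genotypes, 1 of the 15 passed as higher in knockout than in wild-type DNFB ears, where 0.0672% of all genes passed in either direction. Loxl4, a lysyl oxidase-like enzyme, fell from a mean of 294 to 78.5, a log2 change of -1.93. Fmod, a proteoglycan on fibrils, gave -1.79, and Pcolce2, an enhancer of procollagen cleavage, -1.78. Adamts3, a procollagen N-proteinase, gave -0.90.

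Collagen breakdown genes moved both ways. Of 19, 8 rose and 6 fell in wild type (median 0.62), and 10 rose and 6 fell in the knockout. Mmp13, a collagenase, rose at least 4.10-fold in wild type and at least 7.20-fold in the knockout. Timp1, an inhibitor of such enzymes, rose by 3.02 on the log2 scale, from a mean of 60.9 to 507. Mmp8, the neutrophil collagenase, rose at least 1.53-fold, and Ctss, a cathepsin of antigen-presenting cells, by 1.49 on the log2 scale. Of 7 tested macrophage markers, all rose in both genotypes, with summed intensities of 2540 to 2747 in wild-type control and 5516 to 6814 in wild-type DNFB ears, and their part in these values was not tested.

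Among 9 collagen receptors, 4 rose and 3 fell in wild type, and 3 rose and 1 fell in the knockout. Lair1, an inhibitory collagen receptor of immune cells, rose at least 6.31-fold in wild type, and Gp6, the platelet collagen receptor, at least 1.15-fold. Gp6 was near the floor of 16 and did not rise in the knockout. There it read 21.1, 18.2 and 11.1 in control and 8.18, 14.9 and 12.1 in DNFB ears. Cd44 rose by 1.29 on the log2 scale, while Itga10, the integrin chain of chondrocytes, gave -1.07. Of 14 fibrosis regulators, 4 rose and 5 fell in wild type, and 4 rose and 4 fell in the knockout. Ifng, which represses type I collagen, rose at least 1.81-fold, and Il4, a cytokine of type 2 immunity, at least 1.18-fold (adjusted p = 0.00415). Tgfb2, a growth factor that induces collagen, fell by 1.96 on the log2 scale. Other members of its family went both ways. Tgfb3 read 227, 260 and 270 in wild-type control and 99.4, 95.6 and 105 in wild-type DNFB ears. Tgfb1 instead read 95.9, 98.3 and 112 in wild-type control and 271, 210 and 223 in wild-type DNFB ears. In the knockout Tgfb1 read 107, 103 and 119 in control and 245, 267 and 292 in treated ears. Tnf passed as higher (adjusted p = 0.0177), but it read 16.6, 5.86 and 2.45 in wild-type control and 32.6, 24.7 and 38.8 in wild-type DNFB ears, and no fold is given because most control values were below 16.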

How the data were processed

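Whole-ear RNA of 12 ears was measured on one-colour Affymetrix Mouse430_2 arrays, 1 array per ear, hybridized with 10 µg of cRNA made from 5 µg of total RNA per the labels' protocols. The deposited values are linear intensities, 1 per probe set and array, made by the authors with GCRMA per the submitters' processing notes. Its version and settings are not given in the sources used here. The deposited instrument records (unit: other) hold no expression values and gave only the inferred washing runs. A new run began after a gap of over 30 minutes between hybridization times. The number of arrays limits the precision.

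The table held 45101 probe sets, of which 64 controls were left out. Of the others, 34945 carried 1 gene symbol, 932 several and 9160 none. Intensities were taken to log2 with no pseudocount. The filter left 29460 probe sets and 13383 genes. The limma package (version 3.58.1, under R 4.3.3) fitted 1 mean per group over the 12 arrays, with its lmFit and eBayes functions. The 5 comparisons were adjusted for multiple testing by Benjamini-Hochberg, each over every tested probe set, with a threshold of 0.05. The fit was tested on simulated data. Errors are standard errors of the model unless SD is stated. Where all 3 arrays of a group were below 16, folds are given as "at least", against 16.

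Replicates are mice, and the labels give both ears of a mouse the same number. After subtracting group means, the 2 arrays of a mouse correlated at -0.00426 to 0.0797. The labels name no paired test, so mouse was an alternative block. Members, classes and lists were chosen with earlier results of these data known. Values in every array are given for 9 genes fixed by name, and for the 3 genes of each class with the largest change past the threshold in either genotype. List genes named are the up to 4 with the largest change past the threshold in wild type. Sox9, Krt15, Dst, Lama3, Colgalt1, Tgfb1 and Tgfb3 were chosen after their values were seen. Levels of different probe sets were not compared. Sequences came from RefSeq (GRCm38.p6), with motifs counted in the 250 bases before the first listed start of each gene. Printed stretches were shortened where an annotated start lay within them.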

Additional observations from a re-analysis of the deposited data

How the results depend on the processing

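The collagen counts were recomputed with no filter, a filter at 64, log2(intensity + 16), arrays centred on their median, quantile normalization, eBayes with trend and robust, the mean over a gene's probe sets, the mouse as replicate block, the washing run as a block, and each ear left out. The wild-type response gave 2 genes higher in each of these, and 16 to 22 lower against 21. The knockout response gave 2 to 4 higher and 17 to 22 lower against 3 and 21, except that the washing run as a block gave 13 lower. The mouse as replicate block, which uses the pairing of ears, gave the same 23 and 24 calls and changed no other call, and collagen counts between genotypes stayed at 0. With eBayes trend and robust, 2 genes passed as higher in knockout control ears (Col1a1, adjusted p = 0.0251, and Col5a2, 0.0463) and 2 in knockout DNFB ears (Col16a1, 0.0391, and Col5a1, 0.0474), where 59 and 53 of all genes passed. The other genotype counts were 0 under every alternative. Leaving out 1 ear at a time gave 18 to 21 lower and 2 higher in wild type, 17 to 21 lower and 3 higher in the knockout, and 0 to 0 in every genotype comparison. No result changed sign past the threshold. Calls gained in wild type were Col10a1 (log2(intensity + 16), trend and robust, and without wild-type DNFB ear 1), Col14a1 (probe-set mean and without wild-type control ear 2), and Col13a1 and Col9a2 (washing run as a block). Those in the knockout were Col10a1 (log2(intensity + 16) and without wild-type DNFB ear 3), Col4a1 (trend and robust, and probe-set mean) and Col5a1 (probe-set mean). The causes were not tested. Signals near the floor of 16 limit Col9a2, Col10a1, Col13a1, Col20a1, Col22a1 and Col25a1.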

Other observations

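Of the 36 tested collagen genes, 19 had 2 or more tested probe sets. Their changes had the same sign in 16 genes in wild type and 17 in the knockout, the same call in 15 and 13, and opposite calls in 0. Col3a1 was among those that disagreed. Its dimmer probe set read 662, 486 and 713 in wild-type control and 957, 787 and 954 in wild-type DNFB ears. In the knockout it read 876, 695 and 614 in control and 1098, 1067 and 1161 in treated ears. Treated ears were all above control ears on this probe set, while those on the brightest probe set overlapped. Col14a1 differed in the same way: its dimmer probe set fell by 0.72 on the log2 scale in wild type (adjusted p = 0.0141).

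Other tissue compartments moved beside the collagens. Of 10 skeletal muscle markers, 9 fell in each genotype, with medians of -0.89 in wild type and -1.15 in the knockout. Of 5 tested Schwann cell markers, 4 fell in each, and of 7 adipocyte markers, 5 fell in wild type and 3 in the knockout. Of 8 tested markers of myofibroblasts and smooth muscle, 2 rose and 3 fell in wild type, and 2 rose and 2 fell in the knockout. Tnc, the matrix protein tenascin C, rose by 1.73 on the log2 scale in wild type, from a mean of 343 to 1141. Bone markers were near background, with 2 of 5 on the array tested, so bone collagen cannot be followed here.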
